A study of Homo sapiens with 4 samples.

Results

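Genes that build and take apart the actin cytoskeleton were followed after RNA interference against the transcription factor ZFX in NOMO-1 cells, an established human line from a monocytic acute myeloid leukaemia. The 53 genes were chosen by name as regulators of actin assembly and turnover, and each was represented by its probe set of highest mean log2 intensity over the 4 arrays. Of these, 48 were found under a single gene symbol among the 18417 genes of the array and 45 were bright enough to be tested, in a fit over 12892 genes. CAP1, ARPC4, ACTR2, WASF1 and CORO1B were not analysed here. PFN2, FMNL2 and PLS3 lay among the dimmest 30% of genes and are given without a test. TWF1 was already known as a high value of these arrays when the genes were chosen, so its values describe the choice, and the p-values of the 53 genes are no independent support for it.

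Each of the 4 arrays came from cells given a different lentiviral construct, and all were of the NOMO-1 line with RNA taken 48 h after selection. The control group, labelled as ZFX wild type, held an array from cells with a GFP lentivirus (LEN-GFP) and an array from cells with a scrambled short hairpin RNA (SCR). The ZFX knock-down group held an array of cells with the hairpin SH1 and an array of cells with the hairpin SH3. All cells, controls included, carried a lentivirus, added at a multiplicity of infection of 1. No construct was repeated, and the labels do not say whether the cultures were independent, so p-values measure only the spread between these arrays, which may be technical. The study asked what a reduced ZFX level does to gene expression in these cells.

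Actin cycles between single molecules (monomers) and filaments. Twinfilins, cofilins, profilins, cyclase-associated protein and thymosins bind monomers or strip them from old filaments. The ARP2/3 complex starts branches on existing filaments when WASP or WAVE proteins activate it, and formins start and lengthen unbranched filaments. Capping proteins close the fast-growing end, while gelsolin-type proteins also sever filaments. Monocytic cells use this machinery to crawl, to adhere and to engulf particles.

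The 300 bases around the annotated start of 4 genes whose values carry the results below are shown first, because ZFX binds near gene starts. They run from 250 bases before the start to 50 bases after it, are taken from RefSeq (build GRCh38.p14) and are read 5′ to 3′ on the strand of the gene. Capitals mark the letters AGGCCT, the core of the motif known for ZFX, which reads the same on both strands. TWF1 (chr12:43806268-43806567, minus strand) and DSTN (chr20:17569825-17570124, plus strand) each have 1 annotated window, and neither holds these letters. GSN has 6 annotated windows, and the one shown (chr9:121299410-121299709, plus strand) is the one that holds them. FMNL3 (chr12:49707356-49707655, minus strand) has 1 window, with 1 match.

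TWF1: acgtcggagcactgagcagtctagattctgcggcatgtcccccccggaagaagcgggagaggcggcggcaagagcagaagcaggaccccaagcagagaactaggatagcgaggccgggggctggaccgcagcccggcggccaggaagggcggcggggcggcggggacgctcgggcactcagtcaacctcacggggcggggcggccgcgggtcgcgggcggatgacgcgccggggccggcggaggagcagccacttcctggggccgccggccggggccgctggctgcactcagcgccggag
DSTN: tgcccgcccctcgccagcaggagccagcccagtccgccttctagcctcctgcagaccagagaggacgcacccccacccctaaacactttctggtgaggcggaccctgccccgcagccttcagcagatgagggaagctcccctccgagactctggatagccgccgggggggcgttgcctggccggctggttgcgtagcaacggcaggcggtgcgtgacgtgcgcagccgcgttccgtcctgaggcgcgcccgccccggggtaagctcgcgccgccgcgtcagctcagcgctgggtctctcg
GSN: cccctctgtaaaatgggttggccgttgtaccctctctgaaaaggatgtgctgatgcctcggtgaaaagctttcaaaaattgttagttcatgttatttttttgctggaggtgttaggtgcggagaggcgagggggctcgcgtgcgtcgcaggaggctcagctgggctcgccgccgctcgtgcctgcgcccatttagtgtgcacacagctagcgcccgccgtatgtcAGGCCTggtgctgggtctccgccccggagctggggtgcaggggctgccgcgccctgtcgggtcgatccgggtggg
FMNL3: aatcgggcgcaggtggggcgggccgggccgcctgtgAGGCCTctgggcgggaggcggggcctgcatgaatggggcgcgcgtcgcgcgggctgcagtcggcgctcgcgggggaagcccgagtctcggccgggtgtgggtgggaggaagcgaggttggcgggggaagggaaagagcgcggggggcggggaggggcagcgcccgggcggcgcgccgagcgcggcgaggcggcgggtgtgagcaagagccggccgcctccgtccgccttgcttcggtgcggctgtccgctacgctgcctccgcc

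Windows were found for 48 of the 53 genes, 83 in all, and 13 of the 83 (15.7%) held AGGCCT, against 10.9% of the 35116 windows of the same length in the table. Counted by gene, 11 of 48 had at least 1 match (22.9%, against 13% of all genes in the table). The shares by gene are not on a like footing. The members had 83 windows for 48 genes, against 35116 for 27305, and more windows per gene leave more room for a match. Of the 8 genes called on SH3 below, 2 had a match (25%), GSN and FMNL3, while TWF1, DSTN, ARPC1A, FHDC1, DAAM1 and CORO1A had none. The CArG box, the site of the actin-regulated factor SRF, was in 0 of the 83 windows and in 1.29% of all windows. These matches describe the letters of the windows only.

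ZFX mRNA, the target of the hairpins, had log2 intensities of 10.65 and 10.66 on the control arrays (LEN-GFP, SCR), and of 10.13 and 10.12 on the hairpin arrays (SH1, SH3), which were both lower. The groups differed by -0.53 (SE 0.10, 2 against 2 arrays) and did not pass over all genes (adjusted p = 0.797, limma). With each hairpin set singly against the controls, in the fit described below, ZFX fell by 0.54 on SH3 (SE 0.12, adjusted p = 0.0185) and was at -0.52 on SH1 (SE 0.12, adjusted p = 0.121). The arrays were alike in overall brightness, with median intensities from 184.8 to 189.8. All 10 monocytic leukaemia markers found on the array were bright enough to be tested (mean log2 from 11.20 to 11.32 over the arrays), while all 5 T cell markers fell under the brightness limit. Single monocytic markers did differ between the hairpins, and 4 of the 10 passed there (40%, background 8.49%). MPO, the myeloperoxidase of immature myeloid cells, fell by 1.02 on SH3 (adjusted p = 2.48e-04) and was at -0.03 on SH1. KIT, a receptor of blood progenitors, fell by 0.91 on SH3 (adjusted p = 0.00128) and was at 0.03 on SH1. CSF1R, the receptor for the monocyte growth factor M-CSF, rose by 0.96 on SH1 (adjusted p = 0.0355) and was at 0.21 on SH3. CD4 was at 0.44 on SH3 and -0.24 on SH1 and passed only between the hairpins (adjusted p = 0.0266). The part of these markers in the actin results on either hairpin was not tested. Of the other markers, 3 of 4 for B cells, 1 of 3 erythroid, and 3 of 5 each for megakaryocytes, fibroblasts and epithelium passed the brightness limit. The mean log2 of the fibroblast markers was between 6.52 and 6.60 on the 4 arrays. That of the epithelial markers was between 7.49 and 7.65, with KRT18 from 9.95 to 10.20. The monocytic marker CD14 was itself dim, from 7.27 to 7.62. The part of the fibroblast and epithelial markers in the results was not tested.

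Most of the actin regulators lay a little higher on the hairpin arrays. Of the 45 tested, 35 had a higher mean in the hairpin group (77.8%, against 49.2% of all genes tested), and the median difference was 0.12 on the log2 scale, against -0.0029 over all genes. Both hairpins were above both controls for 19 of the 45 (42.2%, background over all genes 18.2%) and below both for 2 (4.44%, background 19%). A lower value can come from less RNA per cell or from fewer cells of a kind, which such samples cannot tell apart. In limma 0 of the 45 genes passed an adjusted p of 0.05 (background 0%), and 5 had an unadjusted p under 0.05 (11.1%, background 6.04%). The genes share arrays and are not replicates of each other, so these shares describe the list and are no test of it. The spread of the list's median between arrays of a group was 0.0722 (pooled SD, 2 arrays a group). It was smaller than the median difference with all 4 arrays, but without SCR the median was 0.0643 and the spread 0.0870. For the formins alone the spread (0.216) was larger than the median (0.15).

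The hairpins gave different pictures of the same list. On SH1 27 of 45 genes lay above the control mean (background 49.8%), with a median of 0.05, and on SH3 37 did (background 49.7%), with a median of 0.18. To test single hairpins, each was set against both controls in limma, with the control pair giving the spread, so that each hairpin array is assumed to vary as the controls do. In this fit 1 gene passed on SH1 (2.22% of 45, background 0.403%) and 8 passed on SH3 (17.8%, background 13.3%). Of the 8 genes 7 were higher on SH3 (15.6% of 45, background 6.33%) and 1 was lower (2.22%, background 7%). The total share on SH3 was near that of all genes, and its direction was mostly upward. Without moderation of the variances 0 passed on either hairpin. Between the hairpins 2 genes passed (4.44%, background 8.49%). Between the control arrays 0 passed in limma (background 0%), with the hairpin pair giving the spread, and 0 had an unadjusted p under 0.05 (background 0.636%). That spread holds the differences between SH1 and SH3, so the test cannot show whether the controls agree. For DAAM1, SCR minus LEN-GFP was -0.46 with an SE of 0.50.

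**Figure D1:**
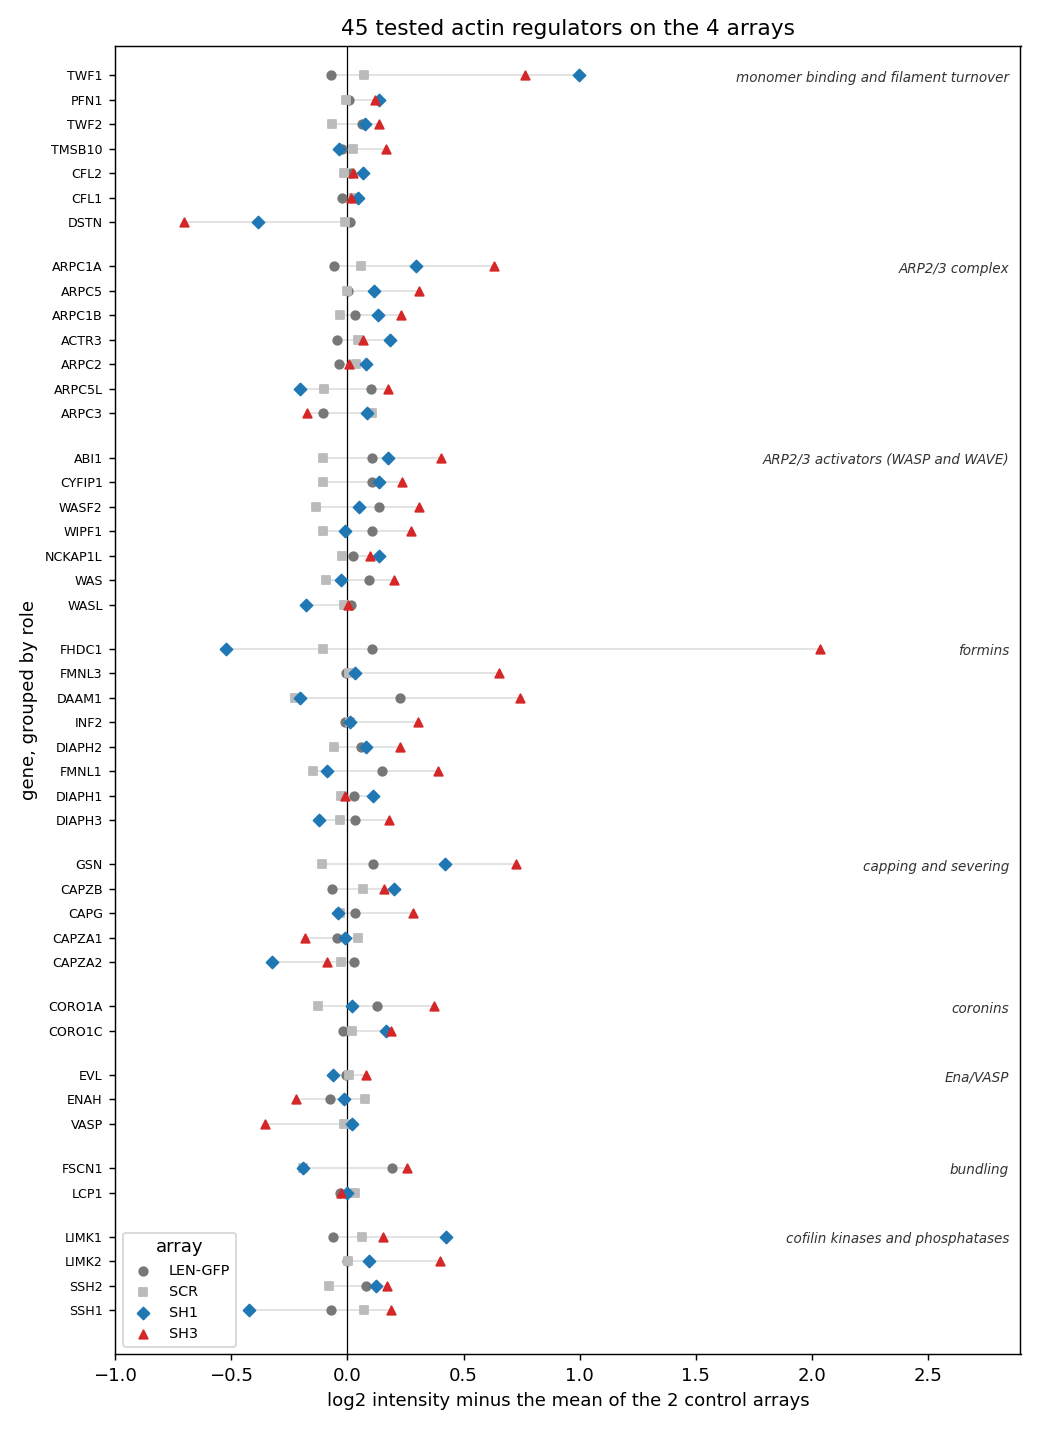
Each row is 1 tested gene, ordered within its role by the difference between the groups, and each mark is 1 array on the log2 scale minus the mean of the 2 control arrays (grey marks for the controls, blue diamonds for SH1, red triangles for SH3). Marks of SH3 sit right of 0 for 37 of the 45 genes and those of SH1 for 27. TWF1 is the highest gene on SH1 at 1.00, FHDC1 is the highest on SH3 at 2.04, and DSTN is the lowest on SH3 at -0.71.

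Among the monomer-binding genes, TWF1 and DSTN moved in opposite directions on SH3. TWF1, twinfilin-1, holds actin monomers and caps filament ends. Its log2 intensity was 10.20 on LEN-GFP, 10.34 on SCR, 11.26 on SH1 and 11.03 on SH3. Both hairpin arrays were well above both controls, SH1 the higher of the pair. The difference was 0.88 (SE 0.13, 1.84-fold, adjusted p = 0.797 in limma over all genes). Set singly against the controls, TWF1 was higher by 1.00 on SH1 (SE 0.12, adjusted p = 0.0162) and by 0.77 on SH3 (SE 0.12, adjusted p = 0.00444). SH3 minus SH1 was -0.23 (adjusted p = 0.390), which did not pass. These passes rest on the pair of controls, which differed by 0.14, and that on SH1 was lost without the intensity trend in limma.

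A further probe set carried the symbol TWF1 and gave 10.09 on LEN-GFP, 10.24 on SCR, 11.25 on SH1 and 11.05 on SH3, a difference of 0.99. The order of the arrays was the same as on the first. RefSeq lists the pseudogenes TWF1P1 and TWF1P2, and copies so alike could share probes, so the probe sets cannot be counted as independent. Pseudogenes named after the gene exist for 19 of the 53 members, among them CFL1, DSTN, PFN1 and ARPC1A, and the same limit holds for them.

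DSTN, destrin or actin-depolymerizing factor, takes filaments apart beside the cofilins. Its log2 intensity was 7.79 on LEN-GFP, 7.77 on SCR, 7.39 on SH1 and 7.07 on SH3. Both hairpins lay below both controls, which nearly coincided. The groups differed by -0.54 (SE 0.13, unadjusted p = 0.00943, adjusted p = 0.797 in limma). On SH3 alone DSTN fell by 0.71 (adjusted p = 0.00839), while SH1 was at -0.38 (adjusted p = 0.321). The cofilins, which share the family and the function of DSTN, stayed close to 0, with differences of 0.03 for CFL1 and 0.05 for CFL2.

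TWF2, the twinfilin paralog, was at 10.68 on LEN-GFP, 10.55 on SCR, 10.69 on SH1 and 10.75 on SH3. Its hairpin arrays were barely above its controls, by less than the controls differed from each other, and the difference was 0.11 (SE 0.11). The contrast between the paralogs was not tested. PFN1, profilin-1, which feeds monomers to formins, lay at 0.13 (SE 0.06, both hairpins above both controls), and TMSB10, a thymosin that sequesters monomers, at 0.07 with overlapping groups. PFN2 was below the brightness limit, with log2 intensities from 5.30 to 5.53 on the 4 arrays. Of the 7 tested genes of this role 6 were higher. The role's median was 0.07, both for the groups and for SH1, and 0.12 for SH3.

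In the ARP2/3 complex, 5 of 7 tested subunits had a higher mean on the hairpins (71.4%, background 49.2%) and 4 had both hairpins above both controls (57.1%, background 18.2%). The role's median was 0.12 for the groups, 0.12 for SH1 and 0.17 for SH3. ARPC1A, a propeller-shaped subunit with WD repeats, was at 11.30 on LEN-GFP, 11.41 on SCR, 11.65 on SH1 and 11.99 on SH3. The groups did not overlap, and SH3 was the highest. The difference was 0.46 (SE 0.14, unadjusted p = 0.0230, adjusted p = 0.797 in limma), and ARPC1A rose on SH3 by 0.63 (1.55-fold, adjusted p = 0.00534), with 0.29 on SH1 (adjusted p = 0.344).

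ARPC1B, its paralog and the form that predominates in blood cells, was at 13.37 on LEN-GFP, 13.31 on SCR, 13.47 on SH1 and 13.57 on SH3. Its groups were also apart, by a smaller step, with a difference of 0.18 (SE 0.07, unadjusted p = 0.0483). ARPC5 gave 11.38 on LEN-GFP, 11.37 on SCR, 11.49 on SH1 and 11.68 on SH3, a difference of 0.21 (SE 0.11, unadjusted p = 0.106). ACTR3, one of the actin-related proteins that give the complex its name, had both hairpins above both controls at 0.12 (SE 0.08). ARPC2 (0.04), ARPC3 (-0.05) and ARPC5L (-0.01) had overlapping groups.

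The activators of ARP2/3 leaned higher, but their controls differed as much. Of 7 tested genes 6 had a higher mean on the hairpins. Their median was 0.05 for SH1, 0.24 for SH3 and -0.21 for SCR minus LEN-GFP. ABI1, a scaffold of the WAVE complex, was at 10.31 on LEN-GFP, 10.10 on SCR, 10.38 on SH1 and 10.61 on SH3. SH3 stood out, and SH1 was only just above LEN-GFP. Its difference was 0.29 (SE 0.14, unadjusted p = 0.0986). CYFIP1, the WAVE subunit that binds the GTPase Rac, was at 9.94, 9.73, 9.97 and 10.07 in the same order of arrays, a difference of 0.18 (SE 0.13). NCKAP1L, the WAVE subunit of blood cells, lay at 0.12 (SE 0.07) with groups apart. WAS (0.09), WASF2 (0.18), WIPF1 (0.13) and WASL (-0.09) had overlapping groups, and none of the 7 had an unadjusted p under 0.05.

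By median, formins had the widest split between the hairpins of the roles. All 8 tested formins had a higher mean in the hairpin group, yet on SH1 4 lay above and 4 below the control mean, with a median of -0.04, while on SH3 7 of 8 lay above, with a median of 0.35. FHDC1, an inverted formin that also binds microtubules, was at 8.77 on LEN-GFP, 8.56 on SCR, 8.14 on SH1 and 10.70 on SH3. SH3 was far above the other 3 arrays and SH1 was the lowest. FHDC1 rose on SH3 by 2.04 (SE 0.15, 4.10-fold, adjusted p = 2.49e-04 in limma) and was at -0.52 on SH1 (adjusted p = 0.238). The hairpins differed by 2.56 (SE 0.18, adjusted p = 5.26e-04), and the group mean of 0.76 (SE 0.82) came from SH3.

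DAAM1, a formin of the Wnt polarity pathway, was at 7.98 on LEN-GFP, 7.52 on SCR, 7.54 on SH1 and 8.49 on SH3. SH3 was the highest, and SH1 lay with SCR. It rose on SH3 by 0.74 (SE 0.19, adjusted p = 0.0333), SH1 was at -0.21, and the hairpins differed by 0.95 (SE 0.22, adjusted p = 0.0317). LEN-GFP and SCR themselves were 0.46 apart on this gene. Both passes were lost with no filter on dim genes and with each array centred on its median.

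FMNL3 was at 8.48 on LEN-GFP, 8.49 on SCR, 8.52 on SH1 and 9.14 on SH3. The other 3 arrays nearly coincided and SH3 stood above them, by 0.65 from the control mean (SE 0.14, 1.57-fold, adjusted p = 0.0178). Its hairpins differed by 0.62 with an adjusted p of 0.0505, just short of the threshold. That difference passed with the lowest 50% of genes left out, with the mean over probe sets, after renewed quantile normalization and without the trend. FMNL1, the formin most typical of white blood cells, lay at 0.39 on SH3 and -0.09 on SH1 (adjusted p = 0.117 and 0.960), with SCR 0.30 below LEN-GFP. INF2, which also severs filaments, was at 0.30 on SH3 on its brighter probe set and at 0.09 on its other. The diaphanous formins DIAPH1, DIAPH2 and DIAPH3 differed between the groups by 0.05, 0.15 and 0.03. FMNL2 was below the brightness limit, with log2 intensities from 6.37 to 6.71.

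**Figure D2:**
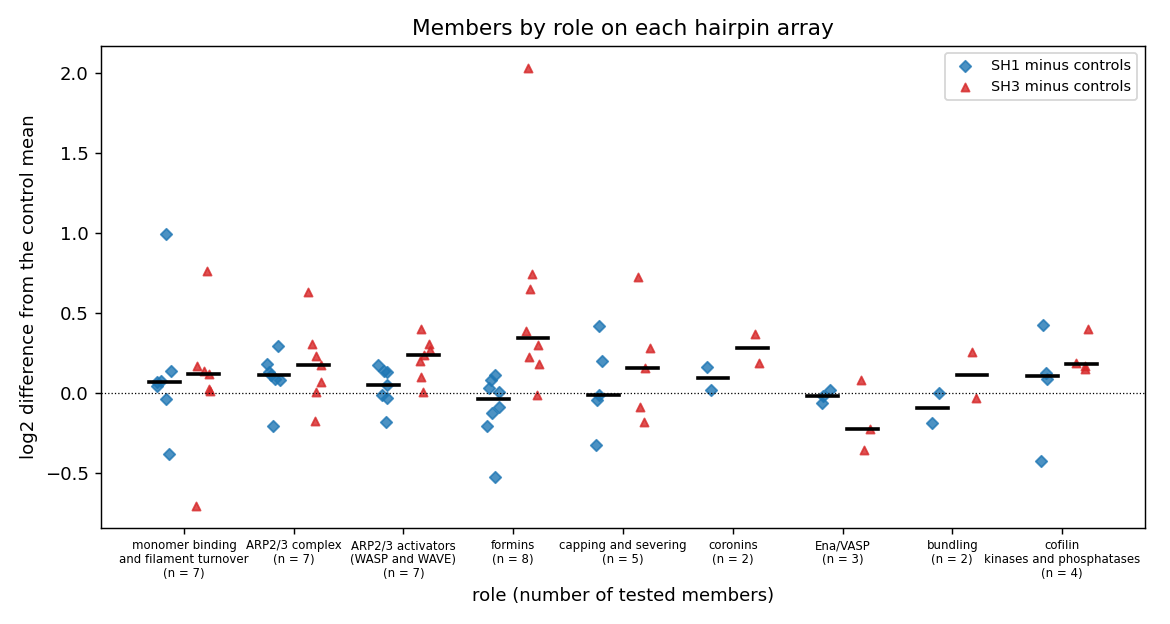
Points are tested genes by role, as the log2 difference of SH1 (blue diamonds) or SH3 (red triangles) from the mean of the 2 controls, and black bars are medians. The controls are shared by both columns of a role. For SH1 and SH3 the medians are -0.04 and 0.35 for the formins, 0.12 and 0.17 for the ARP2/3 subunits, and -0.01 and 0.16 for the capping and severing genes.

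The capping and severing genes did not move as a block. GSN, gelsolin, which severs filaments and caps the new ends in response to calcium, was at 10.75 on LEN-GFP, 10.54 on SCR, 11.07 on SH1 and 11.37 on SH3. Both hairpins were above both controls. The difference was 0.57 (SE 0.15, 1.49-fold, unadjusted p = 0.0135, adjusted p = 0.797 in limma), and GSN rose on SH3 by 0.73 (adjusted p = 0.00690), with 0.42 on SH1 (adjusted p = 0.245).

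The subunits of the capping protein itself went different ways. CAPZA2 was at 11.01 on LEN-GFP, 10.95 on SCR, 10.65 on SH1 and 10.89 on SH3, below both controls on both hairpins but close to them on SH3, with a difference of -0.21 (SE 0.12). CAPZB was at 0.18 (SE 0.09) with groups apart on the higher side, and CAPZA1 at -0.10 with overlapping groups. CAPG, a gelsolin relative of macrophages that caps without severing, was at 0.28 on SH3 and -0.04 on SH1. The median over the 5 genes was 0.12, with 0.16 on SH3 and -0.01 on SH1, which is by definition also the median with the SH3 array left out.

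Among the remaining roles CORO1A was called on SH3. CORO1A, the coronin of white blood cells, which binds filaments and ARP2/3, was at 13.11 on LEN-GFP, 12.86 on SCR, 13.01 on SH1 and 13.36 on SH3. SH1 lay between the controls and SH3 above them, by 0.37 from their mean (SE 0.10, adjusted p = 0.0468 in limma). The controls were 0.25 apart, with SCR the lower. The pass was lost with no filter on dim genes, with a filter of 50%, with median centring and without the trend. CORO1C was at 0.18 (SE 0.07, unadjusted p = 0.0583), with both hairpins above both controls.

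VASP, which lengthens filaments by keeping caps off their ends, was at 10.25 on LEN-GFP, 10.22 on SCR, 10.25 on SH1 and 9.88 on SH3. SH3 was the low array, at -0.36 (adjusted p = 0.0957). Its relatives EVL (0.01) and ENAH (-0.12) had overlapping groups. FSCN1, fascin, a bundling protein, was at 9.62, 9.24, 9.24 and 9.68 on LEN-GFP, SCR, SH1 and SH3, so that each group held a high and a low array. LCP1, the plastin of white blood cells, was level (-0.01, SE 0.06), and PLS3 was below the brightness limit, from 5.46 to 5.48.

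LIMK1, a kinase that switches cofilin off, was at 10.38 on LEN-GFP, 10.50 on SCR, 10.86 on SH1 and 10.59 on SH3. Here SH1 was the highest array, and the difference was 0.29 (SE 0.14, unadjusted p = 0.0923). LIMK2 was at 0.25 (SE 0.15) and the cofilin phosphatase SSH2 at 0.15 (SE 0.12), both with groups apart. SSH1 was at -0.42 on SH1 and 0.19 on SH3, on either side of its controls (adjusted p between the hairpins 0.0533).

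**Figure D3:**
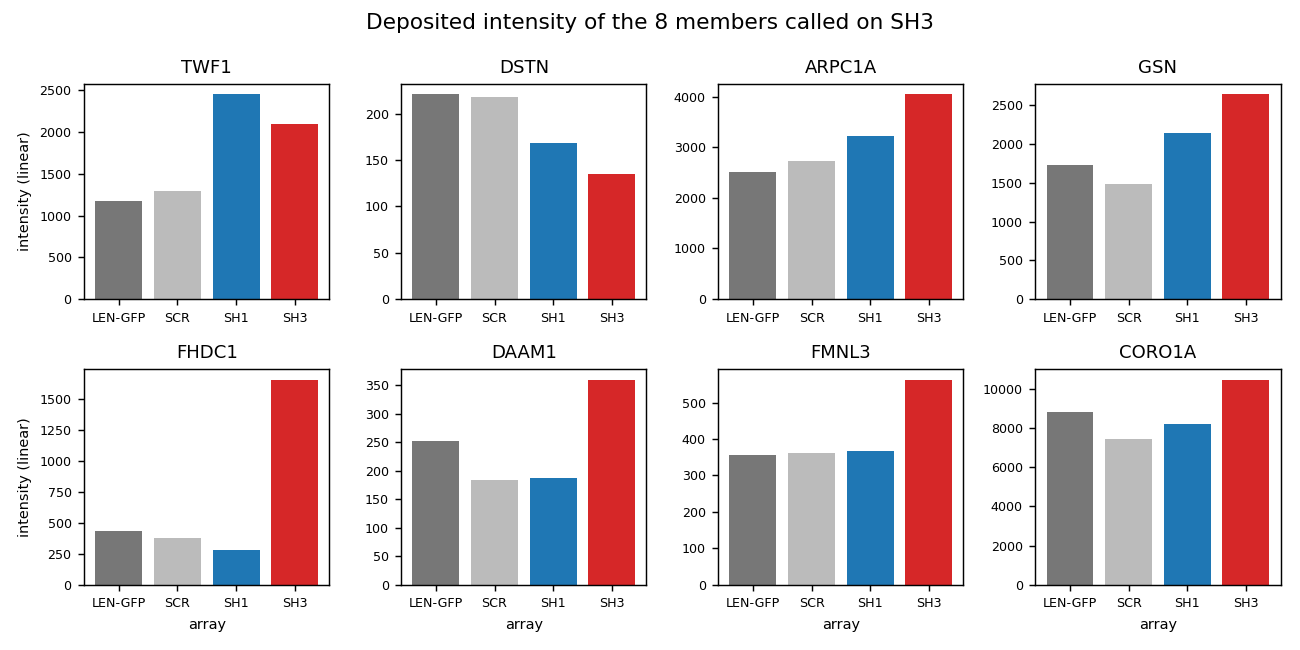
Bars start at 0 and give the deposited linear intensity of the 8 genes that passed on SH3, 1 bar for each array and with a scale of its own in each panel. TWF1, ARPC1A and GSN have both hairpin bars above both control bars, DSTN has both below, and FHDC1 reaches 1662 on SH3 against 282.1 on SH1, 436.6 on LEN-GFP and 376.3 on SCR.

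The wider actin pathway was described with 4 further lists of 89 genes, of which 60 were tested. Of these 41 had a higher mean on the hairpins (68.3%, background 49.2%), with a median of 0.06, and 6 had an unadjusted p under 0.05 (10%, background 6.04%), 4 higher and 2 lower. None passed over all genes in limma, and on SH3 11 passed (18.3%, background 13.3%), 7 higher and 4 lower. The main actins of non-muscle cells, ACTB and ACTG1, were level, at 0.04 (SE 0.05) and 0.03 (SE 0.05), and ACTA1, the actin of skeletal muscle, was at 0.02.

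ACTA2, smooth muscle actin, was the exception among the actins. It was at 10.19 on LEN-GFP, 10.21 on SCR, 9.76 on SH1 and 9.12 on SH3, below both controls on both hairpins and lowest on SH3. The difference was -0.76 (SE 0.23, unadjusted p = 0.0221), and ACTA2 fell by 1.09 on SH3 (adjusted p = 0.00128), against -0.44 on SH1 (adjusted p = 0.238). COTL1, a coactosin-like protein that binds filaments, lay at 0.45 (SE 0.12) and CD2AP, an adaptor that binds capping protein, at 0.41 (SE 0.11), each with both hairpins above both controls.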

How the data were processed

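RNA (200 ng) from the 4 cultures was labelled with biotin by the Ambion WT kit, per the labels' protocols. The authors deposited a linear intensity for each of 33297 probe sets; Affymetrix Expression Console 1.1 and RMA are named in the submitters' processing notes, and how they became linear is not stated in the labels. RMA usually equalises the arrays' distributions, so a change in total RNA per cell cannot be seen, and it compresses differences of dim genes.

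Values were analysed as log2 without an offset. Symbols came from GEO's platform annotation: 19460 probe sets had 1 symbol, 1754 several and 12083 none, and current symbols were taken from RefSeq by Entrez ID. The dimmest 30% of genes (5525, mean log2 under 6.70) were left out. limma 3.58.1 in R 4.3.3 compared the groups (2 residual degrees of freedom, eBayes with trend, two-sided, Benjamini-Hochberg over 12892 genes), and in a further fit each hairpin with the controls (1 residual degree of freedom). The number of arrays limits the precision. Genes given with the value on every array were TWF1, TWF2, those with an unadjusted p under 0.05 or called on a hairpin, and the largest differences of each role (1 where 4 or fewer genes were tested, otherwise 2). Up to 2 genes per direction of each pathway list with an unadjusted p under 0.05, and all tested actins, were also named, except for a result that is not reported here. The monocytic markers given with values were chosen after their values were seen, as those passing between the hairpins. The fits were run on simulated data with changes larger than those of the members and alike on both hairpins. That run does not show how well the fits find changes as small as these. Members and lists were chosen with earlier results of these data known. Alternatives were another brightness filter, the mean over probe sets, median centring, renewed quantile normalization, no trend, no moderation, and each array left out.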

Additional observations from a re-analysis of the deposited data

Results flagged for a closer look

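The genes below were picked because the hairpins differed on them, by limma's test of SH3 against SH1 with the spread of the control pair. Their passing is therefore no further support. Among the members the share passing this test was below that of all genes, as given above. FHDC1 was 2.56 higher on SH3 (SE 0.18, adjusted p = 5.26e-04), DAAM1 was 0.95 higher (SE 0.22, adjusted p = 0.0317) and ACTA2 was at -0.64 (SE 0.15, adjusted p = 0.0311). FHDC1 and DAAM1 lay on opposite sides of the control mean on the hairpins, while ACTA2 lay below it on both. Of the other pathway genes, SH3 was above SH1 by 1.30 for CYFIP2 (adjusted p = 0.00197) and by 0.70 for CARMIL1 (adjusted p = 0.0228). SH3 minus SH1 was -0.72 for PAK2 (adjusted p = 0.0130) and -0.71 for GMFB (adjusted p = 0.0392). Of the monocytic markers, SH3 minus SH1 was -0.99 for MPO (adjusted p = 7.81e-04), -0.94 for KIT (adjusted p = 0.00347) and -0.75 for CSF1R (adjusted p = 0.0272), and 0.69 for CD4 (adjusted p = 0.0266).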

How the results depend on the processing

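In all 7 other settings with 4 arrays, 0 of the members passed between the groups. On SH3, 8 passed in the main fit, and 5 with the lowest 50% of genes left out. That filter also removed DSTN and DAAM1 from the test. It left 41 members, and 1415 of all 9209 genes passed. With no filter on dim genes 6 of 48 members passed, and 1410 of all 18417 genes. The members passing on SH3 were 6 with median centring and 7 without the trend. They were 8 with the mean over probe sets and 9 after renewed quantile normalization. Without moderation 0 passed on SH3, on SH1 and between the hairpins, and without the trend 0 passed on SH1, where TWF1 had been the 1 pass. Between the hairpins FHDC1 passed in every setting with moderation, while DAAM1, FMNL3 and SSH1 passed only in some of them. The median of the monomer-binding genes (0.0664) was 0.0866 both with no filter and with the lowest 50% left out. No scaling turned the direction of a gene given with the value on every array, or of a tested actin.

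Each array was also left out in turn. Without SH1 the groups are SH3 against the controls, and without SH3 they are SH1 against the controls. Those runs repeat the single-hairpin comparisons above and are no separate check of them. The lone array of a group is assumed to vary like the other pair. The median over all members ranged from 0.0464 (without SH3) to 0.181 (without SH1), and was 0.0643 without SCR. For the monomer-binding genes it ranged from 0.0535 to 0.120, for ARP2/3 from 0.0885 to 0.175, for formins from -0.0391 (without SH3) to 0.347 (without SH1), and for capping and severing genes from -0.0104 (without SH3) to 0.157. Changes of sign were followed for the genes given with the value on every array and the pathway genes named by rule. Of these, FHDC1 ranged from -0.52 (without SH3) to 2.04 and DAAM1 from -0.21 (without SH3) to 0.74. VASP ranged from -0.36 to 0.0183 (without SH3), and ACTA1 from -0.0195 (without LEN-GFP) to 0.0646. FSCN1 ranged from -0.19 (without SH3) to 0.25 and was at -0.16 without SCR. Other members changed sign as well, among them FMNL1 (0.15 for the groups, -0.09 without SH3) and ARPC3 (-0.05 for the groups, 0.09 without SH3). The cause was not tested.

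No paired analysis was possible because the labels give no replicate numbers that the groups share.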

Other observations

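Some further pathway genes that passed on SH3 are given here, singled out after their values had been seen. CARMIL1, which binds capping protein and takes it off filament ends, was 1.04 higher on SH3 and 0.34 on SH1 (adjusted p = 0.00147 on SH3, limma with the control pair giving the spread). CYFIP2, the WAVE subunit related to CYFIP1, was 1.25 higher on SH3 and at -0.04 on SH1. HCLS1, the cortactin relative of blood cells, was at 0.43 on SH3 and 0.27 on SH1, with both hairpins above both controls. The kinase TESK2, which acts on cofilin, was at 0.73 on SH3, with a step of -0.49 between its controls. PAK2, a kinase downstream of Rac, was at -0.75 on SH3, and GMFB, which takes branches off filaments, at -0.54.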
